A study of Homo sapiens with 6 samples.

Results

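The set of 52 genes examined here encodes structural proteins of the extracellular matrix and the proteins that shape and bind them. It holds 12 collagen chains, 7 laminin chains, 3 basement membrane linkers, 5 matrix glycoproteins, 4 latent TGF-beta binding proteins (LTBPs), 7 collagen-modifying enzymes, 5 matrix proteases and their inhibitors, and 9 integrin chains. The genes are a list of names grouped by function, drawn up with earlier results of these data known, and all 52 were found among the 57905 gene IDs of the deposited table. They were measured by RNA sequencing in Huh7, an established human hepatoma line. The siASGR1 group was 3 libraries from cells transfected with an siRNA against ASGR1, the gene of the major subunit of the hepatocyte asialoglycoprotein receptor. The siControl group was 3 libraries from cells transfected with a scrambled siRNA. Both groups were harvested 72 h after transfection, and the comparison rests on this 1 cell line. Replicate numbers run from 1 to 3 in each group, but nothing says that the libraries came from separate cultures. The p-values then reflect only how these libraries vary, and that variation may be technical.

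Collagen chains are hydroxylated, glycosylated and folded into triple helices in the endoplasmic reticulum, and lysyl oxidases cross-link the secreted fibrils. Laminins, trimers of an alpha, a beta and a gamma chain, form the basement membrane network together with collagen IV, nidogen, perlecan and agrin. Integrins are dimers of an alpha and a beta chain that bind these proteins at the cell surface. In liver, hepatic stellate cells are the best known source of fibrillar collagen, while hepatocytes secrete plasma fibronectin.

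Of the 52 genes, 10 were higher in siASGR1, 16 were lower, 14 did not pass the test and 12 were too low to be tested. Across all genes tested, 20.9% were higher and 40.4% lower, close to the shares of the 40 members tested. Chains of collagens I, VI and VII, LTBP4 and the lysyl oxidase paralog LOXL2 were lower in siASGR1. Of these, COL1A1, COL1A2, COL6A2, LTBP4 and LOXL2 were high enough to test only through siControl, so they could come out only lower. Lysyl oxidase itself (LOX), the lysyl hydroxylase PLOD1, the membrane protease MMP14 and the integrin chains ITGA1, ITGAV, ITGA6 and ITGB1 were higher. The laminin chains LAMB1 and LAMA5 were lower by 1.27-fold and 1.32-fold.

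Levels are FPKM, fragments per kilobase of exon scaled to the depth of the library, which allow genes of different length to be compared within a library. A gene was tested where it reached 1 FPKM in at least 3 of the 6 libraries, and was called at an adjusted p under 0.05 in limma on log2(FPKM + 1). Fold changes written as log2 are on that scale, which understates changes of low genes, and plain folds are ratios of mean FPKM. Values after ± are SD with n = 3 libraries per group, and log2 fold changes are siASGR1 over siControl with their SE. Among all 13568 genes tested, 61.3% were called, 20.9% higher and 40.4% lower in siASGR1. The 40 tested members had 26 calls (65%), with 10 higher (25%) and 16 lower (40%), a share near that of all genes. Groups did not overlap in 29 of the 40 tested members, against 67.3% of all tested genes. Of the 16 lower members, 5 (COL1A1, COL1A2, COL6A2, LTBP4 and LOXL2) passed the filter only through the siControl libraries. FBN1, also lower, passed it with 3 siControl libraries and 1 siASGR1 library, the latter listed at 1.00 FPKM.

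Over all tested genes the median of the log2 fold changes was -0.13, and over the 40 members it was -0.06. Median-of-ratios scaling moved these medians to -0.01 and 0.08. With that scaling 17 members were higher and 13 lower, where 58.8% of all genes were called, with 29.9% higher and 28.9% lower. Members with small differences therefore have a direction that depends on the scaling, and both values are given for them.

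**Figure D1:**
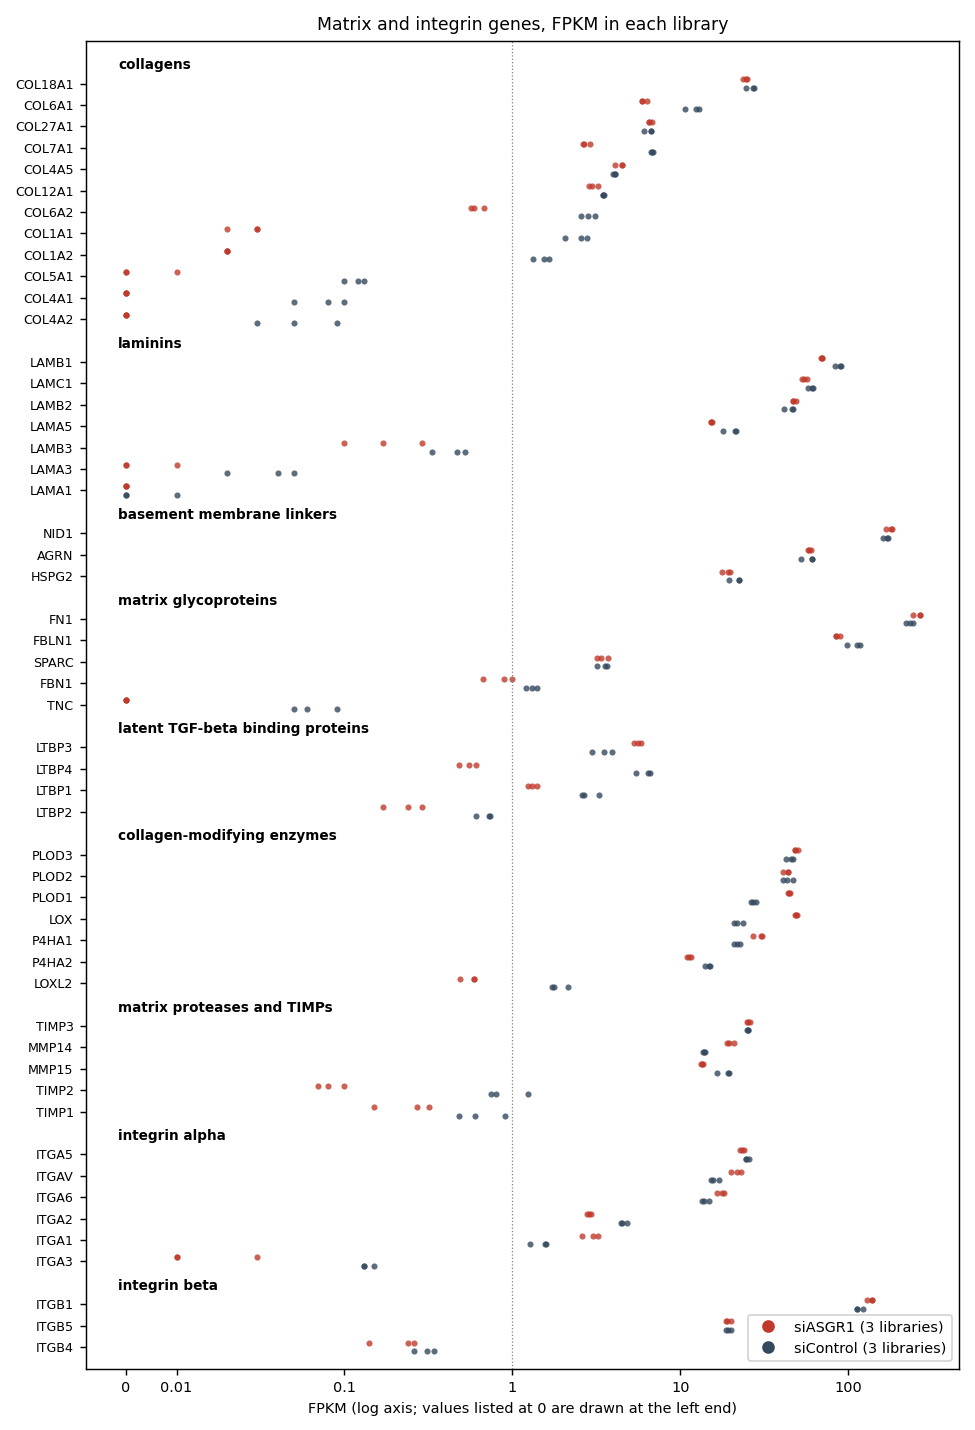
FPKM of the 52 matrix and integrin genes (log axis, siASGR1 libraries in red above siControl libraries in dark blue), 1 point per library, grouped by role and ordered by mean level, with values listed at 0 drawn at the left end. FN1, NID1 and ITGB1 are the highest, and the 12 genes left of 1 FPKM in most libraries were not tested.

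The libraries held 18481000 to 19257000 fragments in siASGR1 and 16326000 to 19333000 in siControl, as rebuilt from the steps between low FPKM values. Genes above 0 numbered 24609 to 25151 in siASGR1 and 26671 to 27300 in siControl. ASGR1 itself was at 4.60, 4.82 and 4.71 FPKM in siASGR1, against 17.54, 17.56 and 16.90 FPKM in siControl, in the table of the whole series (27.2% of siControl, adjusted p = 1.75e-06). The single-library tables gave 14.65, 15.81 and 14.04 FPKM for siASGR1 (85.6%, adjusted p = 0.00954), and no other gene differed between these sources, so the size of the knockdown depends on the source. All 10 hepatocyte markers examined reached 1 FPKM, summing to 6522 to 6622 FPKM in siASGR1 and 3392 to 3540 FPKM in siControl, with 9 of them higher in siASGR1. Of 12 fibroblast and stellate cell markers, 3 reached 1 FPKM in any library. DCN, LUM, COL3A1, POSTN and ACTA2 lay lower in all siASGR1 libraries than in any siControl library, while PDGFRA and RGS5 lay higher. DPT, POSTN and LRAT were listed at 0 in every siASGR1 library, and FAP in every siControl library. The 12 summed to 11.78 to 13.37 FPKM in siASGR1 and 7.79 to 8.33 FPKM in siControl, and without PDGFRA to 1.39 to 1.9 FPKM in siASGR1 and 3.29 to 3.93 FPKM in siControl. Of the 7 endothelial markers found none reached 1 FPKM. Of 8 cholangiocyte and epithelial markers, 3 reached 1 FPKM, with a sum over the list of 41.37 to 42.95 FPKM in siASGR1 and 44.22 to 45.63 FPKM in siControl, and KRT5, KRT7 and KRT14 were listed at 0 in all libraries. Of 8 leukocyte markers, CD14 and LYZ reached 1 FPKM, with a sum of 115.9 to 119.6 FPKM in siASGR1 and 70.1 to 76.63 FPKM in siControl, while PTPRC was at most 0.01 FPKM and MS4A1 was listed at 0.

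Start-site sequences are shown for 3 loci: LTBP4, LOX and the shared start region of the collagen IV pair, whose chains were too low to test. Of the tested members, LTBP4 had the most negative log2 fold change on the log2(FPKM + 1) scale and LOX the most positive. The sequences are those of RefSeq on GRCh38.p14, read 5′ to 3′. Capitals mark matches, on either strand, to 4 motifs that were searched: GGAATG (the TEAD motif), TGANTCA (AP-1), GGGCGG (the GC box) and CCAAT. The collagen IV stretch is the 126 bases between the 2 opposed starts at chr13:110307158-110307283, on the plus strand. The LTBP4 stretch is the 250 bases before its first start, chr19:40592916-40593165, plus strand, and the LOX stretch is the 250 bases before its first start, chr5:122078260-122078509, minus strand.
COL4A1-COL4A2: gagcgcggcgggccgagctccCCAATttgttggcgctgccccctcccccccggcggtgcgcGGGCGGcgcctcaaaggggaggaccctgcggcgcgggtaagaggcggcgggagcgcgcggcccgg
LTBP4: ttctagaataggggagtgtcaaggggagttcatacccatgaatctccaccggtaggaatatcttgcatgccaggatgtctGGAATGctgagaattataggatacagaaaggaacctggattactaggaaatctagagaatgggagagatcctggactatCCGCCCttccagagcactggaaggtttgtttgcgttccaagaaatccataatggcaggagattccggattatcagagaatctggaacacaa
LOX: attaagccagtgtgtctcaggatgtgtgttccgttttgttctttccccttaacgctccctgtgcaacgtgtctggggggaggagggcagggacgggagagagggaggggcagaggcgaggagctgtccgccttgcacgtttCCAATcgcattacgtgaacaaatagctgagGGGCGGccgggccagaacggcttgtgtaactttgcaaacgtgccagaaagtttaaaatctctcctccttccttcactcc
The TEAD motif lay 170 bases before the LTBP4 start, and a GC box on the opposite strand lay 91 bases before it. The second LTBP4 start in the table, whose 250 bases lie at chr19:40601119-40601368 and are not printed, had no TEAD motif and 5 GC-box matches, some of them overlapping, at 56, 52, 48, 25 and 15 bases before it. In LOX a CCAAT lay 109 bases and a GC box 79 bases before the start printed, and its other starts in the table had no match.

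The same motifs were counted in the 250 bases before every start, as a description of these windows. Of the 52 members, 43 had a promoter entry, 11 of them with more than 1 start. GGAATG was found in 6 of the 43 (14%), against 14.3% of 27305 genes in the same table. TGANTCA was found in 2 (4.65%), against 8.06%, and CCAAT in 13 (30.2%), against 37%. GGGCGG was found in 35 (81.4%), against 46.2% of a table that also holds noncoding genes. Of 12 lower members with an entry, 9 held a GC box and 2 the TEAD motif. Of 10 higher members with an entry, 7 held a GC box and 1 the TEAD motif.

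As deposited, no tested collagen was higher in siASGR1, while COL4A5 and COL27A1 were higher after median-of-ratios scaling (0.21 and 0.15, adjusted p = 0.0131 and 0.0457). Of the 9 tested chains 5 were lower and 4 were not called, where 40.4% of all tested genes were lower, and their median log2 fold change was -0.88. The scaled values also gave 5 lower chains. Of these 5, COL1A1, COL1A2 and COL6A2 passed the filter only through siControl, so they could come out only lower, and the count and the median rest on them in part. Summed over all 12 chains, collagen FPKM were 47.62, 47.74 and 48.14 in siASGR1, against 69.21, 67.12 and 62.47 in siControl. That sum leaves out collagens outside the set, of which 6 were tested, with 2 higher and 3 lower. Among them COL5A2 had a mean of 105.7 FPKM in siASGR1 and 64.3 FPKM in siControl, so the sum does not describe all collagen RNA.

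The 2 chains of collagen I, the main fibrillar collagen, were close to absent in siASGR1. COL1A1 (ENSG00000108821; GRCh38 chromosome 17, 50183289 to 50201632, minus strand) was at 0.03, 0.02 and 0.03 FPKM in siASGR1, against 2.77, 2.05 and 2.56 FPKM in siControl. These values are 6, 4 and 6 rebuilt reads, against 526, 338 and 410. The siASGR1 mean was 1.08% of that in siControl, and the log2 fold change was -1.75 (SE 0.11, adjusted p = 2.37e-05). In bulk RNA, fewer cells that express a gene and less RNA per cell cannot be told apart. COL1A2 (chromosome 7, 94394561 to 94431232, plus strand) was at 0.02 FPKM in each siASGR1 library, against 1.55, 1.33 and 1.65 FPKM in siControl, or 1.32% (log2 fold change -1.30, SE 0.11, adjusted p = 7.27e-05). Neither gene had overlapping groups. Fibroblast and stellate cell markers went both ways, as given above. Their sum was higher in siASGR1, but without PDGFRA it was lower. COL3A1, a fibrillar collagen, was at 0.12, 0.10 and 0.15 FPKM in siASGR1, against 0.81, 0.66 and 0.66 FPKM in siControl. ACTA2, smooth muscle actin, was at 0.05, 0.04 and 0.07 FPKM in siASGR1, against 0.72, 0.57 and 0.61 FPKM in siControl. PDGFRA, a mesenchymal receptor, was at 11.47, 10.39 and 10.98 FPKM in siASGR1, against 4.40, 4.58 and 4.50 FPKM in siControl. The part of these markers in the collagen I result was not tested, nor was that of the number of genes detected.

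Collagen VI, a beaded-filament collagen of 3 different chains, fell unevenly. COL6A1 (chromosome 21, 45981737 to 46005050, plus strand) was at 6.36, 5.88 and 5.88 FPKM in siASGR1, against 12.96, 12.35 and 10.64 FPKM in siControl, 1.98-fold lower (log2 fold change -0.88, SE 0.08, adjusted p = 7.16e-05). COL6A2, its neighbour on the same strand (chromosome 21, 46098097 to 46132849), was at 0.59, 0.68 and 0.57 FPKM in siASGR1, against 3.11, 2.80 and 2.55 FPKM in siControl, 4.60-fold lower (log2 fold change -1.24, SE 0.09, adjusted p = 3.66e-05). The third chain, COL6A3, is not one of the 52 and lay below the filter at 0.00, 0.01 and 0.01 FPKM in siASGR1, against 0.29, 0.24 and 0.25 FPKM in siControl. The FPKM ratio of COL6A1 to COL6A2 was 10.8, 8.65 and 10.3 in siASGR1, against 4.17, 4.41 and 4.17 in siControl, with no overlap. On the log2(FPKM + 1) scale the ratio was 2.13 ± 0.09 in siASGR1 and 1.76 ± 0.05 in siControl, a difference of 0.36 (exact two-sided permutation test, p = 0.1, the smallest that 3 against 3 libraries allow).

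COL7A1, the anchoring fibril collagen of basement membranes, was 2.74 ± 0.151 FPKM in siASGR1 and 6.81 ± 0.0954 FPKM in siControl, 2.49-fold lower (adjusted p = 9.48e-06). The other chains above 1 FPKM differed little. COL18A1, the basement membrane collagen that carries endostatin, was the most abundant of the 12 chains of the set at 23.75, 24.98 and 24.62 FPKM in siASGR1, against 27.55, 27.22 and 24.54 FPKM in siControl. The groups overlapped, and the log2 fold change was -0.11 (SE 0.05, adjusted p = 0.12), or 0.04 with median-of-ratios scaling. In GENCODE 16.4% of its exon bases are shared with SLC19A1, and reads there could not be assigned without the strand setting, which is not given. COL27A1, a fibrillar collagen of cartilage, was at 6.50, 6.47 and 6.75 FPKM in siASGR1, against 6.71, 6.64 and 6.09 FPKM in siControl (log2 fold change 0.02, SE 0.05, adjusted p = 0.779). COL4A5, a collagen IV chain, and COL12A1, a fibril-associated collagen, had log2 fold changes of 0.09 (adjusted p = 0.22) and -0.16 (adjusted p = 0.0567). With median-of-ratios scaling COL12A1 was at -0.04 (adjusted p = 0.575).

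The remaining 3 collagens of the set were too low to test. COL4A1 and COL4A2 form the common collagen IV trimer and are transcribed in opposite directions from the region printed above. Both were listed at 0 in all siASGR1 libraries. In siControl, COL4A1 was at 0.08, 0.05 and 0.10 FPKM and COL4A2 at 0.03, 0.09 and 0.05 FPKM, which correspond to 12 to 24 and 11 to 29 rebuilt reads. COL5A1, a regulator of fibril width, was at 0.00, 0.00 and 0.01 FPKM in siASGR1, against 0.12, 0.13 and 0.10 FPKM in siControl. The chain ratio of the collagen IV pair, at these levels set by the added 1, differed by -0.03 (exact two-sided permutation test, p = 0.4). The same holds for collagen I in siASGR1, where the ratio of COL1A1 to COL1A2 was 0.01 ± 0.01, against 0.46 ± 0.09 in siControl (difference -0.45, exact two-sided permutation test, p = 0.1).

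**Figure D2:**
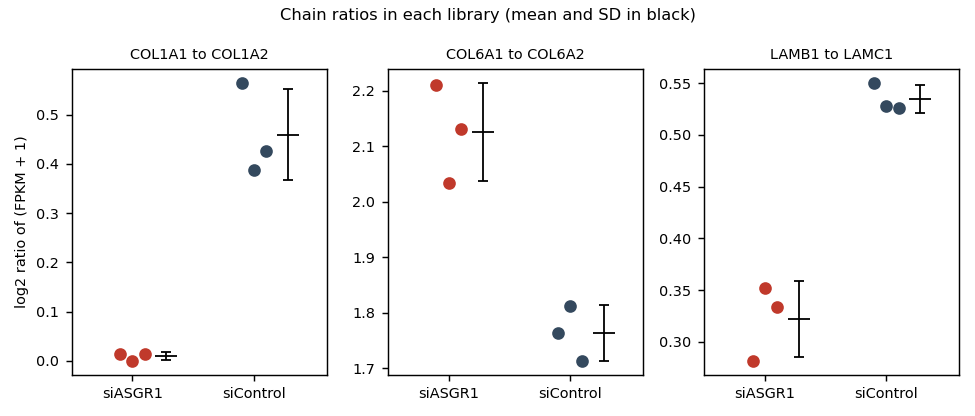
Log2 ratio of (FPKM + 1) for COL1A1 to COL1A2, COL6A1 to COL6A2 and LAMB1 to LAMC1, chains that assemble together. There is 1 point per library, with siASGR1 left of siControl. COL6A1 to COL6A2 is higher in siASGR1 by 0.36 and LAMB1 to LAMC1 lower by 0.21 with no overlap. The collagen I pair rests on levels near 0 in siASGR1, and the collagen IV pair is not drawn.

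Across all tested genes, 20.9% were higher and 40.4% lower. Of 32 other collagen genes, 6 were tested, with 2 higher and 3 lower (3 and 3 with median-of-ratios scaling). They included the most abundant collagen of these cells among those examined, COL5A2, a collagen V chain, at 105.81, 102.04 and 109.16 FPKM in siASGR1, against 65.08, 64.66 and 63.17 FPKM in siControl, 1.64-fold higher (adjusted p = 1.14e-05). COL5A1, a partner chain in collagen V, was at most 0.13 FPKM, as given above. COL5A3, another collagen V chain, was 1.53 ± 0.17 FPKM in siASGR1 and 3.5 ± 0.39 FPKM in siControl, 2.29-fold lower (adjusted p = 0.000238). COL26A1 was 10.02 ± 0.542 FPKM in siASGR1 and 3.91 ± 0.395 FPKM in siControl, 2.56-fold higher (adjusted p = 2.02e-05). COL14A1, a fibril-associated collagen, was 24.8 ± 0.49 FPKM in siASGR1 and 39.8 ± 0.409 FPKM in siControl, 1.6-fold lower (adjusted p = 1.09e-05). COL9A2, a cartilage fibril-associated chain, was 2.10-fold lower (adjusted p = 0.000113).

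Of the 7 laminin chains 4 were tested, and those called as deposited were lower. Among these 4, LAMA5, LAMB1 and LAMC1 were lower and LAMB2 was not called, where 40.4% of all tested genes were lower. The median log2 fold change of the 4 was -0.23. After median-of-ratios scaling 2 were lower and 1 higher, with a median of -0.08, where 28.9% of all tested genes were lower and 29.9% higher. LAMB1 (chromosome 7, 107923799 to 108003255, minus strand), the beta chain of laminins such as laminin-111, was at 69.22, 68.27 and 69.33 FPKM in siASGR1, against 89.82, 88.97 and 83.60 FPKM in siControl. The groups were apart by more than the spread in either, 1.27-fold lower (log2 fold change -0.34, SE 0.04, adjusted p = 0.000293), and -0.19 with median-of-ratios scaling (adjusted p = 0.00708). LAMA5, the widely expressed alpha chain, was at 15.45, 15.20 and 15.18 FPKM in siASGR1, against 21.18, 21.34 and 17.91 FPKM in siControl, 1.32-fold lower (log2 fold change -0.37, SE 0.07, adjusted p = 0.00264), and -0.23 with the scaling (adjusted p = 0.0288).

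LAMC1, the common gamma chain, was at 56.77, 53.26 and 54.81 FPKM in siASGR1, against 61.03, 61.41 and 57.75 FPKM in siControl. These sets do not overlap but are close, and the call (log2 fold change -0.13, SE 0.04, adjusted p = 0.0348) was lost, with the sign turned, after median-of-ratios scaling (0.02, adjusted p = 0.657). It was also lost without siASGR1 replicate 2 (0.0883) or 3 (0.0927) and without siControl replicate 1 (0.106) or 2 (0.106), all adjusted p. LAMB2, the beta chain that replaces LAMB1 in several laminins, was at 46.69, 48.69 and 47.06 FPKM in siASGR1, against 46.84, 46.12 and 41.19 FPKM in siControl. It was not called as deposited (log2 fold change 0.09, SE 0.06, adjusted p = 0.209) and was higher after scaling (0.24, adjusted p = 0.0118). The FPKM ratio of LAMB1 to LAMC1, which does not depend on library scaling, was 1.22, 1.28 and 1.26 in siASGR1, against 1.47, 1.45 and 1.45 in siControl. On the log2(FPKM + 1) scale it was 0.32 ± 0.04 in siASGR1 and 0.53 ± 0.01 in siControl, a difference of -0.21 (exact two-sided permutation test, p = 0.1).

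The other 3 laminin chains were below the filter. LAMB3, a chain of epithelial laminin-332, was at 0.17, 0.10 and 0.29 FPKM in siASGR1, against 0.33, 0.47 and 0.52 FPKM in siControl. LAMA3, its alpha partner, was at 0.00 to 0.01 FPKM in siASGR1 and 0.02 to 0.05 FPKM in siControl. LAMA1 was listed at 0 in all libraries but siControl replicate 2, at 0.01 FPKM. Of the 7 laminin chains in the set, LAMA5 was the only alpha chain above 1 FPKM.

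The 3 basement membrane linkers did not pass the test as deposited. NID1, nidogen-1, which bridges laminin and collagen IV, was at 181.23, 168.66 and 180.30 FPKM in siASGR1, against 168.85, 171.42 and 159.87 FPKM in siControl. The groups overlapped and the gene was not called as deposited (log2 fold change 0.08, SE 0.05, adjusted p = 0.153), but it was higher after median-of-ratios scaling (0.24, adjusted p = 0.00379). HSPG2, perlecan, was at 19.21, 17.75 and 19.83 FPKM in siASGR1, against 22.30, 22.21 and 19.40 FPKM in siControl (log2 fold change -0.16, SE 0.07, adjusted p = 0.0741). It shares 11.7% of its exon bases with LDLRAD2. AGRN, agrin, was at 57.60, 59.56 and 58.37 FPKM in siASGR1, against 60.98, 61.14 and 52.50 FPKM in siControl (log2 fold change 0.01, SE 0.06, adjusted p = 0.892). After that scaling AGRN was at 0.16 (adjusted p = 0.0758).

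Among 16 other laminin and basement membrane genes, 4 were tested, 1 was higher and 2 were lower, with either scaling. The shares of all tested genes were 20.9% higher and 40.4% lower as deposited. NID2, the nidogen-1 paralog, was 2.14 ± 0.0557 FPKM in siASGR1 and 5.98 ± 0.357 FPKM in siControl, 2.79-fold lower (adjusted p = 1.06e-05). TINAGL1, a laminin-binding protein, was 5.54 ± 0.271 FPKM in siASGR1 and 11.96 ± 0.52 FPKM in siControl, 2.16-fold lower (adjusted p = 1.21e-05). FRAS1, an epithelial basement membrane protein, was 18.97 ± 1.66 FPKM in siASGR1 and 12.3 ± 0.388 FPKM in siControl, 1.54-fold higher (adjusted p = 0.000266).

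Matrix glycoproteins held the most abundant gene of the set and changed in both directions. FN1, fibronectin (chromosome 2, 215360440 to 215436172, minus strand), was at 265.70, 243.26 and 265.97 FPKM in siASGR1, against 232.11, 241.36 and 218.91 FPKM in siControl, rank 122 among all tested genes by mean level. The lowest siASGR1 library lay just above the highest siControl library, and the difference was 1.12-fold (log2 fold change 0.16, SE 0.05, adjusted p = 0.0345). That call depended on the libraries: it was lost without siASGR1 replicate 1 (adjusted p = 0.106) or 3 (0.111) and without siControl replicate 1 (0.0747) or 3 (0.091). Median-of-ratios scaling gave 0.31 (adjusted p = 0.00212), and quantile normalization gave -0.04 (adjusted p = 0.657).

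FBLN1, fibulin-1, a fibronectin-binding glycoprotein, was at 84.59, 89.12 and 84.94 FPKM in siASGR1, against 112.81, 117.21 and 97.91 FPKM in siControl. It was 1.27-fold lower with no overlap (log2 fold change -0.34, SE 0.07, adjusted p = 0.00429), and the call was lost after median-of-ratios scaling (-0.18, adjusted p = 0.067). FBN1, fibrillin-1, the microfibril backbone, was at 0.89, 0.67 and 1.00 FPKM in siASGR1, against 1.30, 1.21 and 1.40 FPKM in siControl. It was called lower (log2 fold change -0.32, SE 0.11, adjusted p = 0.0352), but the call was lost after that scaling (-0.24, adjusted p = 0.0879) and without any one library except siASGR1 replicate 3, with adjusted p of 0.0561 to 0.0972. SPARC, a collagen-binding matricellular protein, was at 3.37, 3.71 and 3.19 FPKM in siASGR1, against 3.54, 3.66 and 3.2 FPKM in siControl (log2 fold change -0.01, SE 0.07, adjusted p = 0.875). TNC, tenascin-C, was listed at 0 in siASGR1 and at 0.09, 0.05 and 0.06 FPKM in siControl, below the filter.

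LTBPs hold latent TGF-beta in the matrix, and their 3 tested members were called in opposite directions with either scaling. Of the 3, 1 was higher and 2 lower, where 20.9% of all tested genes were higher and 40.4% lower. LTBP4 passed the filter only through siControl and could come out only lower. LTBP4 (ENSG00000090006; chromosome 19, 40592883 to 40629818, plus strand) was at 0.48, 0.55 and 0.61 FPKM in siASGR1, against 6.56, 6.38 and 5.42 FPKM in siControl. Every siControl library was above every siASGR1 library, and the mean was 11.2-fold lower in siASGR1 (log2 fold change -2.20, SE 0.09, adjusted p = 3.93e-06), the largest absolute value among the 40 tested members on this scale. The order depends on the added 1: with 0.1 in its place, COL1A1 was at -4.33, COL1A2 at -3.74 and LTBP4 at -3.27. LTBP1 was at 1.31, 1.23 and 1.40 FPKM in siASGR1, against 2.60, 3.26 and 2.68 FPKM in siControl, a mean 46.1% of that in siControl (log2 fold change -0.73, SE 0.09, adjusted p = 0.00039). LTBP3 went the other way, at 5.59, 5.84 and 5.27 FPKM in siASGR1, against 3.51, 3.89 and 2.97 FPKM in siControl, 1.61-fold higher (log2 fold change 0.56, SE 0.09, adjusted p = 0.00106).

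LTBP3 was thus the most abundant LTBP in siASGR1 and LTBP4 the most abundant in siControl. LTBP2, which binds fibrillin microfibrils, was below the filter at 0.29, 0.24 and 0.17 FPKM in siASGR1, against 0.73, 0.74 and 0.61 FPKM in siControl. Summed over the 4 genes, LTBP FPKM were 7.67, 7.86 and 7.45 in siASGR1, against 13.40, 14.27 and 11.68 in siControl.

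**Figure D3:**
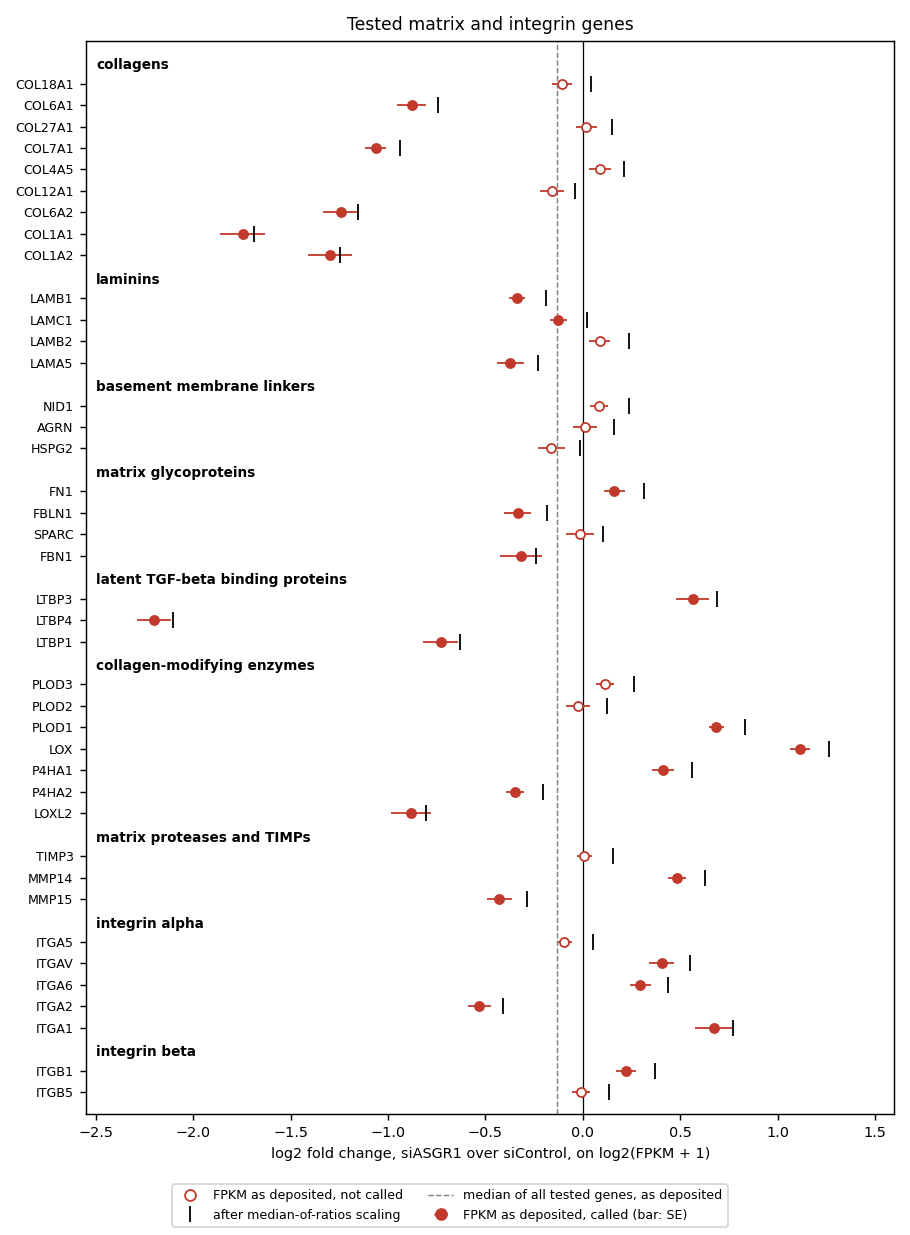
Log2 fold change (siASGR1 over siControl, log2(FPKM + 1) scale) of the 40 tested members by role, with SE bars, filled where called; black ticks show the value after median-of-ratios scaling and the dashed line the median of all tested genes at -0.13. LTBP4 at -2.20 and LOX at 1.12 are the extremes on this scale, and 4 of 7 integrin chains are called to the right of 0.

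Collagen-modifying enzymes were all tested, with 3 higher, 2 lower and 2 not called (4 higher and 2 lower after median-of-ratios scaling). Of all tested genes, 20.9% were higher and 40.4% lower as deposited, and 29.9% and 28.9% after that scaling. Of the 2 lower enzymes, LOXL2 passed the filter only through siControl and could come out only lower. Their summed FPKM were 227.4, 222.9 and 226.4 in siASGR1, against 172.3, 177.0 and 178.3 in siControl, 1.28-fold higher. LOX (ENSG00000113083; chromosome 5, 122063195 to 122078360, minus strand), the lysyl oxidase that starts collagen and elastin cross-links, was at 49.79, 48.26 and 48.51 FPKM in siASGR1, against 20.93, 21.58 and 23.58 FPKM in siControl. The groups were far apart, 2.22-fold higher in siASGR1 (log2 fold change 1.12, SE 0.05, adjusted p = 5.97e-06), and 1.26 after scaling. LOXL2, a lysyl oxidase paralog that acts on basement membrane collagen, moved oppositely, at 0.59, 0.49 and 0.59 FPKM in siASGR1, against 2.14, 1.71 and 1.77 FPKM in siControl, 3.37-fold lower (log2 fold change -0.88, SE 0.10, adjusted p = 0.000263).

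Of the lysyl hydroxylases, only PLOD1 was called as deposited. PLOD1 was at 43.48, 44.81 and 44.27 FPKM in siASGR1, against 26.30, 28.09 and 26.93 FPKM in siControl, 1.63-fold higher with no overlap (log2 fold change 0.69, SE 0.04, adjusted p = 1.38e-05). PLOD2, which hydroxylates the telopeptides, was at 43.93, 40.73 and 43.60 FPKM in siASGR1, against 40.76, 42.90 and 46.98 FPKM in siControl (log2 fold change -0.02, SE 0.06, adjusted p = 0.744). PLOD3, which also glycosylates hydroxylysine, was at 48.34, 50.02 and 47.99 FPKM in siASGR1, against 45.60, 47.09 and 42.50 FPKM in siControl. It was not called as deposited (log2 fold change 0.11, SE 0.05, adjusted p = 0.0721) and was higher after scaling (0.26, adjusted p = 0.00388). In siControl PLOD1 was below both paralogs in every library, and in siASGR1 its range overlapped that of PLOD2, with PLOD3 above both.

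The catalytic subunits of prolyl 4-hydroxylase, which stabilises the triple helix, moved in opposite directions. P4HA1 was 29.2 ± 1.84 FPKM in siASGR1 and 21.7 ± 0.87 FPKM in siControl, 1.35-fold higher (log2 fold change 0.41, adjusted p = 0.000625). P4HA2 was 11.2 ± 0.241 FPKM in siASGR1 and 14.6 ± 0.56 FPKM in siControl, 1.30-fold lower (log2 fold change -0.35, adjusted p = 0.000502). Both kept their call with median-of-ratios scaling. P4HA2 shares 6.45% of its exon bases with its antisense gene.

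Across all tested genes, 20.9% were higher and 40.4% lower (29.9% and 28.9% after median-of-ratios scaling). Of 26 further genes of collagen folding and processing, 17 were tested, with 7 higher and 7 lower (9 and 4 after scaling), and 1 passed the filter only through siControl. The 4 with the smallest p-values were all higher. SERPINH1, the collagen chaperone HSP47, was at 19.30, 21.86 and 22.11 FPKM in siASGR1, against 9.25, 9.12 and 8.61 FPKM in siControl, 2.35-fold higher (adjusted p = 1.12e-05). PPIB, the endoplasmic reticulum prolyl isomerase cyclophilin B, was 304.8 ± 14.7 FPKM in siASGR1 and 182.4 ± 7.81 FPKM in siControl, 1.67-fold higher (adjusted p = 2.83e-05). P3H1, a prolyl 3-hydroxylase that works in a complex with PPIB, was 1.45-fold higher (adjusted p = 3.72e-05), and PCOLCE2, a procollagen proteinase enhancer, was 1.63-fold higher (adjusted p = 3.81e-05).

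The matrix proteases of the set split, with MMP14 higher and MMP15 lower. MMP14, the membrane-type collagenase MT1-MMP, was at 18.94, 20.73 and 19.54 FPKM in siASGR1, against 13.80, 14.06 and 13.56 FPKM in siControl, 1.43-fold higher (log2 fold change 0.49, SE 0.05, adjusted p = 0.000113). MMP15, another membrane-type protease, was at 13.21, 13.62 and 13.40 FPKM in siASGR1, against 19.47, 19.19 and 16.63 FPKM in siControl, 1.37-fold lower (log2 fold change -0.43, SE 0.06, adjusted p = 0.00093). The groups of both genes were separate, and the order of the 2 genes differed: MMP14 was above MMP15 in each siASGR1 library and below it in each siControl library.

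Of the tissue inhibitors of metalloproteinases, only TIMP3 was high enough to test, and it was not called as deposited. TIMP3, the matrix-bound inhibitor, was at 26.07, 25.24 and 24.77 FPKM in siASGR1, against 25.33, 25.37 and 24.95 FPKM in siControl (log2 fold change 0.01, SE 0.04, adjusted p = 0.872), although median-of-ratios scaling gave 0.15 (adjusted p = 0.0114). TIMP2 was below the filter at 0.10, 0.07 and 0.08 FPKM in siASGR1, against 1.24, 0.80 and 0.75 FPKM in siControl, 11.2-fold lower in mean FPKM. The siASGR1 values of TIMP2 are 11, 7 and 9 rebuilt reads, and 10% of its exon bases are shared with CEP295NL and AC022966.1. TIMP1 was also low, at 0.15, 0.27 and 0.32 FPKM in siASGR1, against 0.90, 0.60 and 0.48 FPKM in siControl.

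Of the 9 integrin chains, 4 were called higher and 1 lower as deposited. Among the 7 tested, ITGA1, ITGA6, ITGAV and ITGB1 were higher, ITGA2 was lower, and ITGA5 and ITGB5 were not called, where 20.9% of all tested genes were higher and 40.4% lower. Their median log2 fold change was 0.22 (5 higher and 1 lower after median-of-ratios scaling). ITGB1 (ENSG00000150093; chromosome 10, 32900319 to 33005792, minus strand), the beta chain shared by most matrix-binding integrins, was at 138.34, 128.85 and 138.28 FPKM in siASGR1, against 111.96, 113.01 and 122.57 FPKM in siControl. Its groups did not overlap and it was 1.17-fold higher (log2 fold change 0.22, SE 0.05, adjusted p = 0.00703), or 0.37 after scaling (adjusted p = 0.000442). Quantile normalization ended that call (0.11, adjusted p = 0.171).

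The collagen-binding alpha chains ITGA1 and ITGA2, encoded by neighbouring genes on chromosome 5, moved in opposite directions. ITGA1 was at 3.23, 2.60 and 3.03 FPKM in siASGR1, against 1.28, 1.59 and 1.57 FPKM in siControl, 2.00-fold higher (log2 fold change 0.67, SE 0.09, adjusted p = 0.00069). ITGA2 was at 2.85, 2.78 and 2.95 FPKM in siASGR1, against 4.49, 4.80 and 4.45 FPKM in siControl, 1.6-fold lower (log2 fold change -0.53, SE 0.06, adjusted p = 0.000208). Neither pair of groups overlapped. ITGA1 shares 6.39% of its exon bases with other genes, among them PELO, whose reads cannot be told apart there.

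The laminin-binding chain ITGA6 was at 17.74, 16.46 and 18.16 FPKM in siASGR1, against 13.90, 13.40 and 14.79 FPKM in siControl, 1.24-fold higher (log2 fold change 0.30, SE 0.06, adjusted p = 0.00283). ITGAV, which binds RGD sites in fibronectin and latent TGF-beta, was at 22.90, 19.89 and 21.76 FPKM in siASGR1, against 15.26, 15.65 and 17.08 FPKM in siControl, 1.34-fold higher (log2 fold change 0.41, SE 0.07, adjusted p = 0.00138). Both genes had their lowest siASGR1 value above their highest siControl value. ITGA5, the fibronectin receptor chain, was at 23.31, 23.84 and 22.58 FPKM in siASGR1, against 24.59, 25.49 and 24.61 FPKM in siControl. It lay lower in each siASGR1 library but did not pass the test (log2 fold change -0.10, SE 0.04, adjusted p = 0.0719), and its sign turned after scaling (0.05). ITGA5 was the most abundant alpha chain in every siControl library and in every siASGR1 library, with ITGAV next.

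ITGB5, a partner of ITGAV, was at 18.98, 19.93 and 18.78 FPKM in siASGR1, against 19.24, 20.05 and 18.79 FPKM in siControl (log2 fold change -0.01, SE 0.04, adjusted p = 0.868), or 0.14 after scaling (adjusted p = 0.0442). ITGA3 and ITGB4, laminin-binding chains, were below the filter. ITGA3 was at 0.01, 0.01 and 0.03 FPKM in siASGR1, against 0.13, 0.13 and 0.15 FPKM in siControl. ITGB4 overlapped between groups, at 0.14, 0.26 and 0.24 FPKM in siASGR1 and 0.31, 0.34 and 0.26 FPKM in siControl. The FPKM of ITGB1 over the sum of the 6 alpha chains was 1.98, 1.96 and 2.02 in siASGR1, against 1.88, 1.85 and 1.96 in siControl, so the closest libraries of the groups did not differ at these digits.

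Of 17 other integrin genes 3 were tested, and each was called, where 61.3% of all tested genes were called. ITGAL, a leukocyte integrin chain, was 2.66 ± 0.199 FPKM in siASGR1 and 1.37 ± 0.11 FPKM in siControl, 1.95-fold higher (adjusted p = 0.000454). ITGA7, a laminin-binding chain, was 1.39-fold lower (adjusted p = 0.00182). ITGAE was 1.28-fold lower (adjusted p = 0.0311), a call that median-of-ratios scaling ended.

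The 12 members below the filter could be compared only from rebuilt reads, in a fit added after the data were seen, over genes with at least 10 reads in all. Of these, 11 entered that fit, 10 were lower in siASGR1 and ITGB4 was not called (limma-voom, adjusted p = 0.115). Of the 10, COL4A1, COL4A2, COL5A1, LAMA3 and TNC met the minimum only through siControl and could come out only lower, so the count is no support for a direction. In the same fit 48.6% of 22197 genes were called, 34.0% lower and 14.6% higher. LTBP2 and TIMP2 had the smallest adjusted p (1.69e-06 and 3.29e-07), and TIMP1 the largest of the 10 (0.0162). Groups did not overlap in 10 of the 12. The share was 67.3% among tested genes but was not counted among all genes below the filter, so this count is no result about these members. The siASGR1 libraries also had fewer genes above 0, as given above, and the part of that in these low members was not tested.

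**Figure D4:**
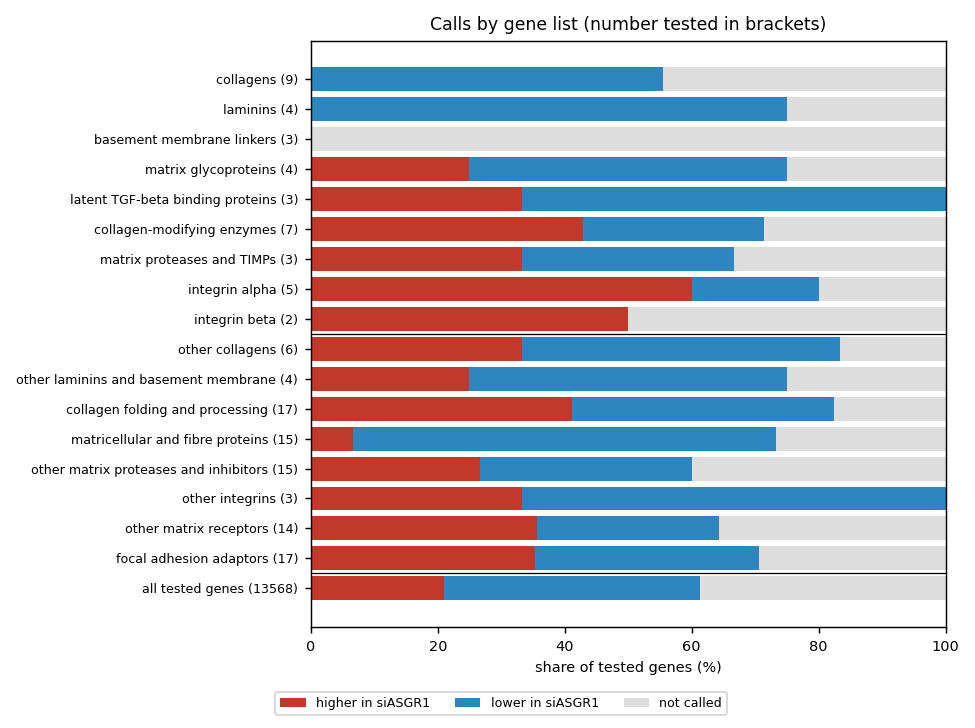
Share of tested genes called higher, called lower and not called in siASGR1 for each role list of the set, for the further matrix lists and for all tested genes (x axis in %, number tested in brackets). Collagens have 5 of 9 lower and none higher as deposited (2 higher after median-of-ratios scaling), the integrin alpha chains have 3 of 5 higher, and all tested genes have 20.9% higher and 40.4% lower.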

How the data were processed

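The deposited values are FPKM, rounded by the authors to 2 decimals. A whole-series table and 1 table per library each list 57905 gene IDs. The whole-series table is named as raw counts, but its values are FPKM. The submitters' processing notes name HISAT2 2.0.1, cutadapt 1.9.1, bcl2fastq 2.17.1.14 and the build hg19. For the counting program, annotation and strand setting, none is named: not given in the sources used here. Per the labels' protocols, a TruSeq kit was used on 1 µg of RNA per library. All 6 libraries entered 1 fit with the group as the only term.

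The whole-series table was used, since it differs from the others in ASGR1 alone. Genes with at least 1 FPKM in at least 3 libraries were tested with limma 3.58.1 in R 4.3.3 on log2(FPKM + 1), with a prior that follows the level, two-sided, and Benjamini-Hochberg adjustment over all 13568 genes. The members and the gene lists were chosen with earlier results of these data known. Values in every library are given, per role list, for the 3 tested members with the highest mean and the 3 with the largest absolute log2 fold change, and up to 4 called genes with the smallest p are named per further list, of which some are not reported here. Other members, and genes named beside a result (COL6A3, COL3A1, COL5A3, ACTA2), were named after their values were seen. Coordinates and exon overlaps are those of GENCODE 29 on GRCh38, as the tables carry none.

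Depth was rebuilt from the steps between low FPKM in genes of at most 1500 exon bases, where 94.5% to 95.4% of values of up to 20 reads came out whole within rounding, against 9.02% to 9.82% by chance. Rebuilt reads served only alternatives and read numbers. Chi-square per degree of freedom lay between 2.49 and 5.2 within groups, so no library was a copy of another. Same-numbered libraries did not deviate together (r of -0.019, 0.002 and 0.012). Alternatives were other scalings, pseudocounts of 0.1 and 0.5, other filters, a constant prior, a replicate block, limma-voom on rebuilt reads, a stricter threshold and leaving out each library. Tables and plots were made with Python 3.11.15, pandas 2.3.3, scipy 1.17.1 and matplotlib 3.10.9.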

Additional observations from a re-analysis of the deposited data

How the results depend on the processing

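Of the 26 called members, 21 had the same direction and call in every alternative they entered and 23 in every fit that left out 1 library, the others being LAMC1, FN1 and FBN1, with FBLN1 lost under median-of-ratios scaling and ITGB1 under quantile normalization. Members called higher numbered 17 with median-of-ratios scaling, and members called lower 9 with a filter of 5 FPKM, which tests fewer genes, and 28 with limma-voom on rebuilt reads of at least 10 in all, which tests more. Leaving out 1 library gave 9 to 11 higher and 14 to 17 lower. Over all genes, 3382 were lower with the filter of 5 FPKM. With the replicate number as a block, 9 members were higher and 15 lower, since FN1 (adjusted p = 0.0772) and LAMC1 (0.0595) were lost, and all genes gave 2761 and 5303. The numbers do not pair the libraries.

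Signs turned for members with differences near 0, by log2 fold change. Median-of-ratios scaling gave 0.040 for COL18A1, 0.024 for LAMC1, 0.104 for SPARC, 0.125 for PLOD2, 0.051 for ITGA5 and 0.136 for ITGB5. Upper-quartile scaling gave 0.046 for SPARC, 0.051 for PLOD2 and 0.064 for ITGB5. Quantile normalization gave 0.023 for COL12A1, -0.017 for NID1, -0.058 for AGRN, -0.037 for FN1, 0.168 for SPARC and 0.058 for ITGB5. Over the fits without 1 library, COL27A1 ranged between -0.019 and 0.041, AGRN between -0.061 and 0.047, SPARC between -0.061 and 0.024, PLOD2 between -0.070 and 0.030, TIMP3 between -0.012 and 0.024, and ITGB5 between -0.034 and 0.015. The cause was not tested. Quantile normalization was not run for the ratio of COL4A1 to COL4A2, whose chains are below the filter. At the depth of these libraries, values below 0.1 FPKM rest on few reads, and FPKM show shares of the RNA, not amounts per cell.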

Other observations

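Further lists of matrix genes were counted in the same fit. There 20.9% of all tested genes were higher and 40.4% lower (29.9% and 28.9% after median-of-ratios scaling). These shares stand beside the counts of each list below. Of 29 matricellular and fibre proteins, 15 were tested, with 1 higher and 10 lower in siASGR1 (2 and 9 after median-of-ratios scaling), where 40.4% of all tested genes were lower. Of the 15, 3 passed the filter only through siControl. CCN2, connective tissue growth factor, was 37.7 FPKM in siASGR1 and 99.3 FPKM in siControl, 2.63-fold lower (adjusted p = 2.03e-06). THBS1, thrombospondin-1, which can activate latent TGF-beta, was 3.05-fold lower (adjusted p = 3.31e-05), and EFEMP1, fibulin-3, 1.37-fold lower (adjusted p = 7.2e-05).

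Of 30 other matrix proteases and inhibitors, 15 were tested, with 4 higher and 5 lower (8 and 5 after scaling), and 1 passed the filter only through siControl. ADAMTS9, a proteoglycan-cleaving protease, was 3.01-fold higher (adjusted p = 1.2e-05), and TMPRSS6, the hepatocyte protease matriptase-2, was 4.08-fold lower (adjusted p = 2.93e-05). FURIN, the proprotein convertase, was 1.47-fold higher (adjusted p = 9.44e-05).

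Of 18 other matrix receptors, 14 were tested, with 5 higher and 4 lower (7 and 2 after scaling). The syndecans, heparan sulfate proteoglycans of the cell surface, divided: SDC2 was 1.72-fold higher (adjusted p = 1.27e-05) and SDC3 2.47-fold lower (adjusted p = 6.15e-05). SGCB, a sarcoglycan, was 1.75-fold lower (adjusted p = 0.000254). Of 23 focal adhesion adaptors, 17 were tested, with 6 higher and 6 lower (9 and 3 after scaling). The actin cross-linkers divided too: ACTN1 was 1.47-fold higher (adjusted p = 7.98e-05), and ACTN4 was 144.0 FPKM in siASGR1 and 185.4 FPKM in siControl, 1.29-fold lower (adjusted p = 0.000527). BCAR1, the adaptor p130Cas, was 1.66-fold lower (adjusted p = 3.7e-05), and VASP, which promotes actin filament growth, was 1.31-fold higher (adjusted p = 0.000193).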
